A study of Mus musculus with 16 samples.

Results

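The TNF ligand and receptor superfamilies were examined in bone marrow progenitors with and without the upstream enhancer of the PU.1 gene. Members were the genes of the count table whose symbol is *Tnf*, *Lta*, *Ltb*, *Ltbr*, *Fas*, *Fasl*, *Cd40*, *Cd40lg* or *Cd70*, or has the form *Tnfsf* or *Tnfrsf* with a number and an optional letter. This rule took 40 of 54347 genes, namely 17 ligands and 23 receptors. At least 1 count was found for 39 of them, and *Cd40lg* had none in any library. LSKs (lineage-negative, Sca-1-positive, c-Kit-positive cells, which include the stem cells) and GMPs (granulocyte-monocyte progenitors, here lineage-negative, Sca-1-negative, c-Kit-positive and CD16/32-positive) were sorted from bone marrow of UREΔ and WT mice on a C57BL/6 background. The 4 groups were WT LSKs, UREΔ LSKs, WT GMPs and UREΔ GMPs, with 4 libraries each. The mice were littermates aged 8 to 12 weeks, with 4 mice for each genotype and cell type. UREΔ mice lack the upstream regulatory element (URE) of *Spi1*, the gene for the transcription factor PU.1, in all of their cells and not only in the sorted ones.

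TNF superfamily ligands are mostly membrane proteins that act as trimers on receptors with cysteine-rich extracellular domains. Receptors with a death domain (Fas, the TNF receptor Tnfrsf1a, the TRAIL receptor Tnfrsf10b, Tnfrsf21 and Tnfrsf25) can recruit adaptor proteins that lead to caspase activation. Decoy receptors bind a ligand without passing on a death signal. Most other members recruit TRAF adaptors and lead to NF-κB activation, which can promote survival. In bone marrow, the family is best known for control of lymphocytes, with the ligands BAFF (*Tnfsf13b*) and APRIL (*Tnfsf13*) and their receptors BAFF-R (*Tnfrsf13c*), TACI (*Tnfrsf13b*) and BCMA (*Tnfrsf17*) acting on B cells. TNF and Fas ligand are also known to act on stem and progenitor cells.

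The 2 receptors called lower in UREΔ LSKs, the death receptor that was higher in both UREΔ populations and the ligand whose genotype effect differed between LSKs and GMPs are shown by the 250 bases before their RefSeq start sites (GRCm38.p6). Searched motifs were the PU.1 core GAGGAA, its longer form GAGGAAGT, which contains the core, and the RUNX motif TGTGGT, on both strands. Capitals mark a match, which reads ACCACA where TGTGGT lies on the opposite strand. The windows are chr15:82224381-82224630 (minus strand) for *Tnfrsf13c*, chr11:61126505-61126754 (plus strand) for *Tnfrsf13b*, chr19:34290409-34290658 (plus strand) for *Fas* and chr17:57194182-57194431 (minus strand) for *Tnfsf14*, each printed 5′ to 3′ on the strand of its gene.
*Tnfrsf13c*: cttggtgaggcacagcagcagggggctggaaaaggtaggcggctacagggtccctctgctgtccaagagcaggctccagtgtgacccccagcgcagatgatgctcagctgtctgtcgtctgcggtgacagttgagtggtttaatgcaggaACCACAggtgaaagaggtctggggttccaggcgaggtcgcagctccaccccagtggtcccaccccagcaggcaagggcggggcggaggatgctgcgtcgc
*Tnfrsf13b*: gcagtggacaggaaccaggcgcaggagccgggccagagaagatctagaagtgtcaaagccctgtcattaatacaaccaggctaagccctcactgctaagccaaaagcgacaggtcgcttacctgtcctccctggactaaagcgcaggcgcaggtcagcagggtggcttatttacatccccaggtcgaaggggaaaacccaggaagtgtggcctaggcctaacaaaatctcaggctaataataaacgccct
*Fas*: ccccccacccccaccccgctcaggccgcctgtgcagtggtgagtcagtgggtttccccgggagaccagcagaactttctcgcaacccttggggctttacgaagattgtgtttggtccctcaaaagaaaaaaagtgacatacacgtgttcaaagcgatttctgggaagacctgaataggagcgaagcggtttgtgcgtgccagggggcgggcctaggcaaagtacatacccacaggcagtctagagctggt
*Tnfsf14*: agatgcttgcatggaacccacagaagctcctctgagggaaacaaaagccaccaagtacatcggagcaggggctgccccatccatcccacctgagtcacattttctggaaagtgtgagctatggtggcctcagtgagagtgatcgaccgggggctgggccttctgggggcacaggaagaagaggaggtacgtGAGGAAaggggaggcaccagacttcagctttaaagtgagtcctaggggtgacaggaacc
The table of start sites held 30 of the 40 members with 34 windows. GAGGAA was found in 12 of these windows (35.3%) and in 23.3% of all 32851 windows. In the *Tnfsf14* window it begins 59 bases before the start site, and *Ltb*, *Ltbr*, *Tnf* and *Tnfrsf1b* are also among the genes with a match. TGTGGT was found in 3 member windows (8.82%), those of *Tnfrsf13c*, *Tnfsf13* and *Tnfrsf25*, and in 14% of all windows. GAGGAAGT was found in 1 member window (2.94%), that of *Tnfsf18*, and in 2.44% of all windows. These matches describe the letters in these windows only.

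Total counts lay between 20028302 and 29128858 per library. *Spi1* had 127, 69.5, 134 and 165 CPM (counts scaled by library size and TMM over all 16 libraries) in WT LSKs and 2.84, 4.44, 3.66 and 1.13 CPM in UREΔ LSKs, each in the order of replicates 1 to 4. It had 139, 84.8, 181 and 153 CPM in WT GMPs and 17.4, 28.6, 23.6 and 15.6 CPM in UREΔ GMPs, so that the genotypes did not overlap in either population. The 5 GMP markers (*Mpo*, *Elane*, *Prtn3*, *Ctsg*, *Fcgr3*) summed to 977 to 1598 CPM in WT and 692 to 1502 CPM in UREΔ LSKs, and to 54914 to 70387 CPM in WT and 73668 to 160091 CPM in UREΔ GMPs. The 6 LSK markers (*Ly6a*, *Hlf*, *Mecom*, *Meis1*, *Hoxa9*, *Flt3*) summed to 1487 to 2474 CPM in WT and 1199 to 1406 CPM in UREΔ LSKs, and to 273 to 448 CPM in WT and 119 to 218 CPM in UREΔ GMPs. Of these 6, *Flt3* was called lower in both populations. The 8 T and NK cell markers (*Cd3d*, *Cd3e*, *Cd3g*, *Cd8a*, *Ncr1*, *Klrd1*, *Nkg7*, *Il2rb*) summed to 117 to 292 CPM in WT and 213 to 355 CPM in UREΔ LSKs, and to 562 to 976 CPM in WT and 1350 to 2226 CPM in UREΔ GMPs. Between the GMP genotypes *Nkg7* was the 1 marker of the 8 that could be tested, and it was called higher. At least 10 counts in a library were reached by 4 of the 8 in each LSK group, 3 in WT GMPs and 1 in UREΔ GMPs. The UREΔ GMP sum therefore does not stand for the whole list. All 8 were detected in WT LSKs, while *Cd3d*, *Cd3e* and *Cd8a* were at 0 in UREΔ LSKs. *Cd3e* and *Cd3g* were at 0 in WT GMPs, and *Cd3e* and *Cd8a* in UREΔ GMPs. The 4 monocyte markers *Csf1r*, *Ly86*, *Irf8* and *Ccr2*, all detected in every group, summed to 48.1 to 99.1 CPM in WT LSKs, 9.44 to 17.6 in UREΔ LSKs, 490 to 829 in WT GMPs and 45.7 to 56.4 in 3 of the UREΔ GMP libraries. UREΔ GMP replicate 2 stood apart with 234 CPM. The 5 dendritic cell markers (*Itgax*, *Siglech*, *Ccr9*, *H2-Ab1*, *Cd74*) summed to 209 to 557 CPM in WT and 85.7 to 262 CPM in UREΔ LSKs, where *Siglech* was at 0, and to 183 to 273 CPM in WT and 18.3 to 47.6 CPM in UREΔ GMPs. The 5 late neutrophil markers (*S100a8*, *S100a9*, *Camp*, *Ltf*, *Ngp*) summed to 35 to 177 CPM in WT and 177 to 355 CPM in UREΔ LSKs, and to 44.9 to 144 CPM in WT and 216 to 992 CPM in UREΔ GMPs. The 5 basophil and mast cell markers (*Prss34*, *Mcpt8*, *Cpa3*, *Ms4a2*, *Fcer1a*) summed to 23.3 to 44.3 CPM in WT and 87.6 to 157 CPM in UREΔ LSKs, and to 628 to 1235 CPM in WT and 849 to 2336 CPM in UREΔ GMPs. Of these 5, 2 were called higher in UREΔ LSKs. In UREΔ GMPs 1 was called higher and 2 were called lower, with a median log2 fold change of −1.29, so that the sum did not show the direction of most of them. The 5 erythroid and megakaryocyte markers (*Gata1*, *Klf1*, *Car1*, *Pf4*, *Itga2b*) summed to 74.9 to 104 CPM in WT and 67.1 to 344 CPM in UREΔ LSKs, where *Itga2b* was called higher, and to 306 to 658 CPM in WT and 139 to 746 CPM in UREΔ GMPs. In UREΔ LSKs 2 of them had a positive and 3 a negative log2 fold change, with a median of −0.38, so that the sum did not show the direction of most of them. All 5 were called higher in WT GMPs than in WT LSKs, and 3 in UREΔ GMPs than in UREΔ LSKs. The part of these cell types in the results below was not tested. By *Xist* and *Ddx3y*, WT replicates 1 to 3 and UREΔ replicate 1 were male and the others female, so that only replicates 1 and 4 matched in sex between genotypes. Replicate numbers marked libraries that deviated together, and values from fits that add this number as a blocking factor (the replicate block) are given where they change a call.

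**Figure D1:**
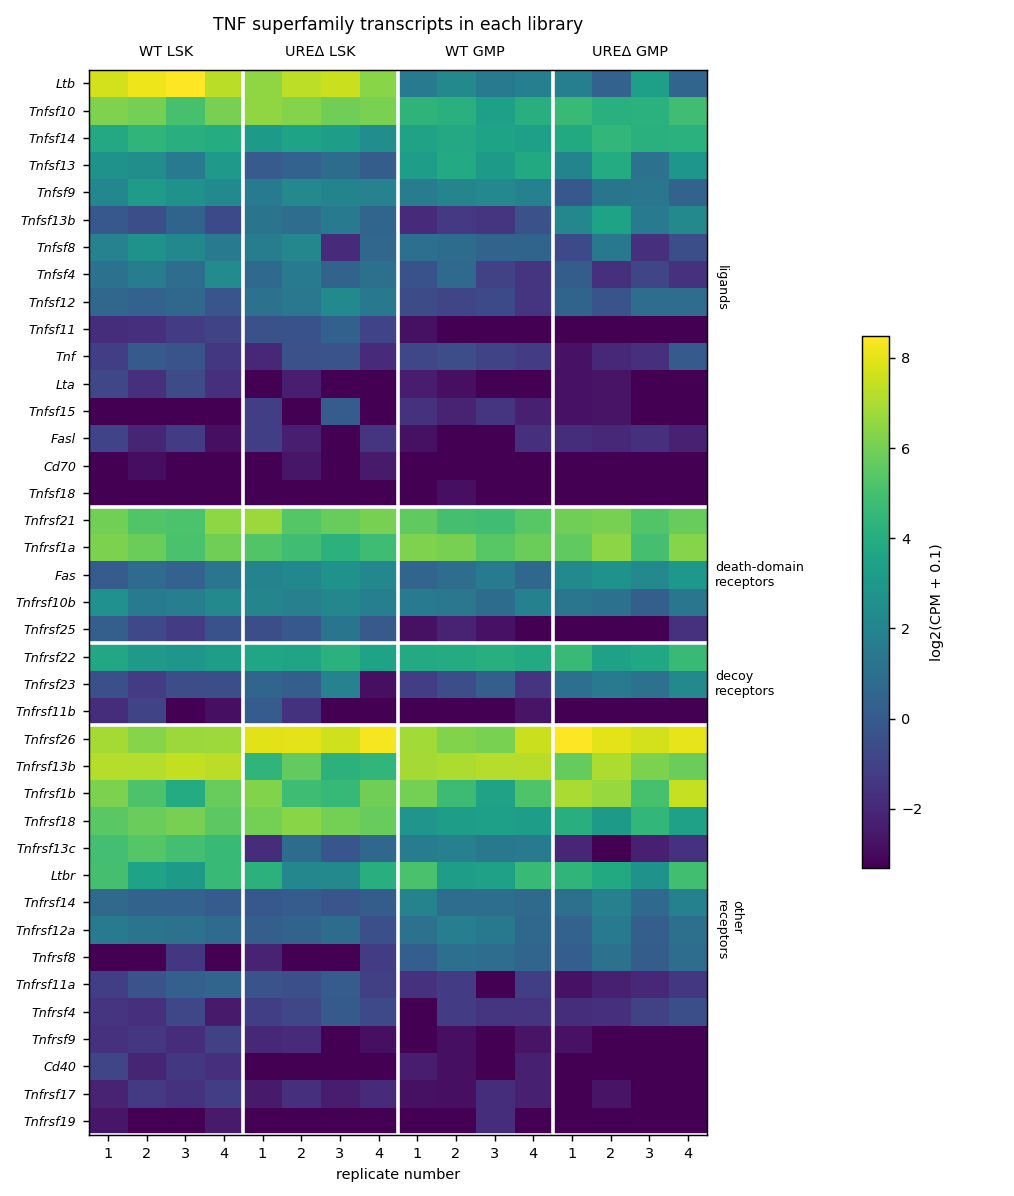
Level of the 39 members with any count in each of the 16 libraries, as log2 of CPM plus 0.1 (colour), with columns for replicates 1 to 4 of each group and rows grouped by role and ordered by their highest group mean. *Ltb* is bright in all 8 LSK libraries and darker in all 8 GMP libraries, and *Tnfrsf13c* is brightest in the WT LSK libraries.

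Levels of different genes were compared as mean CPM per kilobase of exon sequence. In WT LSKs the highest level was that of *Ltb* at 165 ± 59.3 CPM per kilobase (SD, n = 4), which encodes lymphotoxin beta, a subunit of the ligand of the receptor Ltbr. *Tnfrsf13b* followed with 53.8 ± 4.18, then *Tnfrsf18* (GITR, a costimulatory receptor of T cells) with 34.7 ± 6.55 and *Tnfrsf26*, a mouse receptor gene, with 32.2 ± 5.09 CPM per kilobase. The values of *Tnfrsf18* and *Tnfrsf26* differed by less than their SD. In UREΔ LSKs the order was *Ltb* (85.4 ± 33.1), *Tnfrsf26* (79.9 ± 16.6) and *Tnfrsf18* (43.9 ± 8.21 CPM per kilobase), with the first pair within 1 SD of each other. In WT GMPs *Tnfrsf13b* was first (48.1 ± 4.64), followed by *Tnfrsf26* (34.9 ± 16.6, whose SD spans the difference) and *Tnfrsf1a* (23.1 ± 5.01 CPM per kilobase). In UREΔ GMPs *Tnfrsf26* was first (84.3 ± 20), and *Tnfrsf1b* (28.6 ± 15.7), *Tnfrsf13b* (27.5 ± 12.8) and *Tnfrsf1a* (23.9 ± 10.1 CPM per kilobase) were within 1 SD of each other. *Ltb* held rank 1 in both LSK groups and rank 13 in both GMP groups. The group mean stayed under 1 CPM in all 4 groups for 15 members, among them *Tnf*, *Fasl*, *Lta*, *Cd40*, *Cd70*, *Tnfsf11* (RANKL), its receptor *Tnfrsf11a* (RANK) and *Tnfrsf17*.

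The first comparison asked which members change in LSKs when the enhancer is deleted. Of the 40 members, 28 had enough counts for the test, 2 were higher and 3 lower in UREΔ LSKs. These 5 are 17.9% of those tested, where 6.14% of all 15154 genes tested were called (a fold above 1.5 at an adjusted p under 0.05), 2.38% higher and 3.76% lower. Receptors of the BAFF and APRIL group and APRIL itself made up the 3 falls, and *Fas* and *Tnfrsf26* the rises. The genotypes did not overlap for 8 members tested, 4 higher and 4 lower, where this held for 12.6% of all genes, 5.67% higher and 6.9% lower. The replicate block gave 2 higher and 7 lower members, where 9.46% of all genes were called, 3.83% higher and 5.62% lower. Since RNA was taken from sorted bulk cells, fewer cells of a type and less RNA per cell cannot be told apart here or in the comparisons that follow.

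*Tnfrsf13c*, the BAFF receptor (ENSMUSG00000068105, chromosome 15, 82221743 to 82224369 of GRCm38), had 31.1, 40.7, 31.4 and 25.8 CPM in WT LSKs. It had 0.195, 1.69, 0.799 and 1.46 CPM in UREΔ LSKs, and no UREΔ library came near the WT range. The fitted log2 fold change was −4.98 ± 0.56 (standard error, SE, adjusted p = 0.000947). *Tnfrsf13b*, which encodes TACI (ENSMUSG00000010142, chromosome 11, 61126755 to 61149372), had 142, 145, 168 and 155 CPM in WT and 20.8, 50.4, 18.9 and 21.7 CPM in UREΔ LSKs. UREΔ replicate 2 was high within its group and still below every WT library. The log2 fold change was −2.48 ± 0.33 (SE, adjusted p = 0.00225). The B cell marker *Cd79b*, a subunit of the B cell receptor complex, moved in the same direction, with 57.2 to 81.1 CPM in WT and 23.6 to 34.7 CPM in UREΔ LSKs (log2 fold change −1.19, adjusted p = 0.0085). *Pax5*, which defines the B lineage, had at most 0.192 CPM in WT LSKs and was at 0 in all UREΔ LSK libraries. The part of B lineage cells in the lower receptor levels was not tested. Within replicates 1 and 4, which match in sex, the log2 fold changes were −5.13 for *Tnfrsf13c* (adjusted p = 0.0147) and −2.84 for *Tnfrsf13b* (adjusted p = 0.000846). The third receptor of this group, *Tnfrsf17*, had 0.128 to 0.362 CPM in WT and 0.0779 to 0.199 CPM in UREΔ LSKs, too few counts for a test.

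*Tnfsf13*, the APRIL gene (ENSMUSG00000089669, chromosome 11, 69682846 to 69685784), had 6.59, 5.63, 2.93 and 8.29 CPM in WT and 0.935, 1.22, 1.68 and 1.0 CPM in UREΔ LSKs. The genotypes did not overlap, and the log2 fold change was −2.29 ± 0.40 (SE, adjusted p = 0.00838), and −2.96 within the sex-matched replicates 1 and 4 (adjusted p = 0.00955). *Tnfsf13* shares 58.4% of its 31-base words with *Tnfsfm13*, a joint transcript of *Tnfsf12* and *Tnfsf13*, and *Tnfsf12* shares 47.4%. When the 3 loci were summed, the log2 fold change was −0.77 (adjusted p = 0.346). This sum includes *Tnfsf12*, whose values were higher in UREΔ LSKs, and the part of read assignment in the call for *Tnfsf13* was not tested. *Tnfsf12* alone (TWEAK) had 1.41, 1.21, 1.48 and 0.805 CPM in WT and 2.03, 2.58, 4.71 and 2.67 CPM in UREΔ LSKs, a log2 fold change of 1.25 that did not pass (adjusted p = 0.128) although the genotypes did not overlap. The BAFF gene *Tnfsf13b* had 0.864, 0.603, 1.29 and 0.523 CPM in WT and 2.22, 1.79, 2.82 and 1.34 CPM in UREΔ LSKs. Again no libraries overlapped, and the log2 fold change of 1.27 did not pass (adjusted p = 0.173). With DESeq2 both *Tnfsf12* and *Tnfsf13b* were called in LSKs.

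Among the death-domain receptors, *Fas* (ENSMUSG00000024778, chromosome 19, 34290666 to 34327772) had 0.992, 1.68, 1.21 and 2.37 CPM in WT and 3.78, 4.50, 6.48 and 4.34 CPM in UREΔ LSKs. Every UREΔ library was above every WT library, and *Fas* rose with a log2 fold change of 1.59 ± 0.37 (SE, adjusted p = 0.0346). This call was close to the threshold. It was lost when any library other than WT replicate 4 was left out, with a log2 fold change between 1.41 and 1.69 and an adjusted p between 0.0569 and 0.103, and with no filter on low counts (adjusted p = 0.0589). Within the sex-matched replicates 1 and 4 it was 1.25 (adjusted p = 0.236). The main TNF receptor *Tnfrsf1a* had 71.9, 56.7, 33.9 and 61.0 CPM in WT and 38.6, 29.1, 18.9 and 27.7 CPM in UREΔ LSKs. It was lower in the UREΔ library of each same-numbered pair, with a log2 fold change of −0.99 ± 0.28 (SE, adjusted p = 0.0757, lowered to 0.00346 by the block). Without WT replicate 3, which overlapped the UREΔ range, the log2 fold change was −1.15 (adjusted p = 0.0358). *Tnfrsf21* (DR6) had 62.7, 38.5, 35.8 and 88.8 CPM in WT and 104, 40.8, 53.7 and 67.8 CPM in UREΔ LSKs, with overlapping groups and a log2 fold change of 0.21 (adjusted p = 0.922). *Tnfrsf10b*, the TRAIL receptor, had 2.88 to 6.18 and 3.34 to 4.33 CPM (log2 fold change −0.19, adjusted p = 0.923).

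Among the decoy and other receptors, *Tnfrsf26* (ENSMUSG00000045362, chromosome 7, 143607659 to 143628722) had 119, 80.6, 106 and 109 CPM in WT and 248, 259, 196 and 326 CPM in UREΔ LSKs. The genotypes did not overlap, and the log2 fold change was 1.28 ± 0.20 (SE, adjusted p = 0.00538), and 1.30 within the sex-matched replicates 1 and 4 (adjusted p = 0.0147). Its neighbours *Tnfrsf22* and *Tnfrsf23*, which encode decoy receptors for TRAIL, lie beside it on chromosome 7 with 6083 and 16147 bases between the genes. *Tnfrsf22* had 13.4, 8.28, 7.33 and 9.62 CPM in WT and 12.5, 12, 18.6 and 11.4 CPM in UREΔ LSKs, and *Tnfrsf23* had 0.640, 0.335, 0.585 and 0.604 CPM in WT and 1.36, 1.09, 3.62 and 0.0418 CPM in UREΔ LSKs. Both overlapped between genotypes and did not pass (log2 fold changes 0.47 and 1.46, adjusted p = 0.534 and 0.536). *Tnfrsf1b*, the other TNF receptor, had 71.3, 36.6, 15.4 and 53.5 CPM in WT and 76.6, 28.3, 23.7 and 60.3 CPM in UREΔ LSKs, a log2 fold change of 0.07 (adjusted p = 0.985). *Ltbr* had 32.2, 11.4, 8.58 and 24.9 CPM in WT and 19.2, 4.27, 4.58 and 17.4 CPM in UREΔ LSKs. For both genes replicates 1 and 4 were above replicates 2 and 3 in either genotype. *Ltbr* was lower in the UREΔ library of every pair, and its log2 fold change of −0.80 was not called (adjusted p = 0.675) but was called with the replicate block (−0.92, adjusted p = 0.028). *Tnfrsf18* had 44.8, 55.7, 65.9 and 45.4 CPM in WT and 65.3, 83.9, 64.8 and 53.7 CPM in UREΔ LSKs, with overlapping groups and a log2 fold change of 0.30 (adjusted p = 0.623). An antisense gene covers 21.9% of the 31-base words of *Tnfrsf18*, and these unstranded libraries cannot separate the strands.

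Of the more abundant ligands, *Ltb* (ENSMUSG00000024399, chromosome 17, 35194439 to 35196320) had 203, 295, 352 and 153 CPM in WT and 92.3, 157, 186 and 82.4 CPM in UREΔ LSKs. Here replicates 2 and 3 were above 1 and 4 in both genotypes. The UREΔ library of each pair was lower, with a log2 fold change of −0.99 ± 0.34 (SE, adjusted p = 0.164, lowered to 0.00179 by the block). *Tnfsf14* (LIGHT, a ligand of Ltbr and of Tnfrsf14; ENSMUSG00000005824, chromosome 17, 57189492 to 57194177) had 14.0, 20.8, 16.7 and 15.8 CPM in WT and 8.45, 11.4, 9.67 and 5.47 CPM in UREΔ LSKs. The genotypes did not overlap, and the log2 fold change of −0.97 ± 0.27 (SE) missed the threshold (adjusted p = 0.0744, lowered to 0.02 by the block). *Tnfsf10*, the TRAIL gene, had 74.5, 64.5, 33.3 and 67.9 CPM in WT and 90.9, 79.3, 60.0 and 68.8 CPM in UREΔ LSKs, with overlapping groups (log2 fold change 0.29, adjusted p = 0.753). Of the members that passed neither with nor without the block, 19 in all, log2 fold changes lay between −0.95 and 1.46, and the smallest adjusted p was 0.128 without the block and 0.0775 with it. Over the 28 members tested the median log2 fold change was −0.31, where it was 0.00093 over all genes tested.

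**Figure D2:**
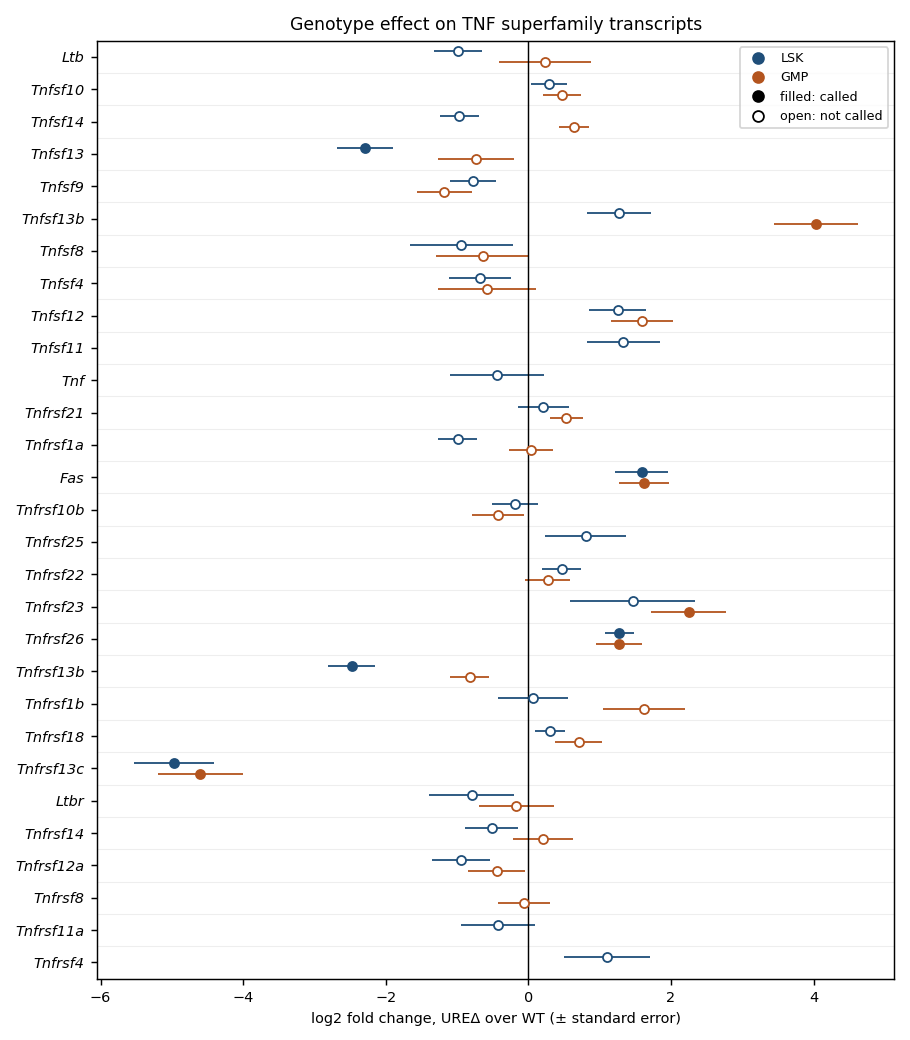
Log2 fold change of UREΔ over WT with its standard error for each member tested in LSKs (blue) or GMPs (orange), with filled points for called members and open points for the others. *Tnfrsf13c* lies at −4.98 in LSKs and −4.60 in GMPs, and *Fas* and *Tnfrsf26* lie to the right of 0 in both.

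The same question was asked in GMPs, where 24 members could be tested. There 4 members were higher and 1 was lower in UREΔ GMPs. These 5 are 20.8% of those tested, where 8.3% of all 13829 genes were called, 4.67% higher and 3.63% lower. *Tnfrsf13c* was again lower and *Fas* and *Tnfrsf26* again higher, and *Tnfsf13b* and *Tnfrsf23* were the other 2 rises. The genotypes did not overlap for 8 members tested, 6 higher and 2 lower, where this held for 14.8% of all genes, 7.85% higher and 6.98% lower. In the fit with the replicate block, 7 members were higher and 3 lower, where 16.3% of all genes were called, 9.52% higher and 6.82% lower. The LSK and GMP comparisons share no library, although same-numbered libraries of a genotype had the same sex in both.

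*Tnfsf13b*, the BAFF gene (ENSMUSG00000031497, chromosome 8, 10006467 to 10039072), had 0.173, 0.291, 0.244 and 0.674 CPM in WT GMPs and 4.39, 11.3, 2.71 and 4.61 CPM in UREΔ GMPs. The lowest UREΔ library was above the highest WT library, and the log2 fold change was 4.03 ± 0.59 (SE, adjusted p = 0.00345), and 3.41 within the sex-matched replicates 1 and 4 (adjusted p = 0.0171). UREΔ replicate 2, which also had the highest sum of monocyte markers of its group, had the highest level. Between the genotypes the monocyte marker sum was lower and the late neutrophil marker sum higher in UREΔ GMPs, and the part of either cell type in the level of *Tnfsf13b* was not tested. *Tnfsf13* had 9.35, 14.8, 8.50 and 14.4 CPM in WT and 3.86, 15.5, 2.10 and 7.26 CPM in UREΔ GMPs. Replicate 2 was the highest here too, and the log2 fold change of −0.74 did not pass (adjusted p = 0.518). *Tnfsf12* had 0.563, 0.457, 0.537 and 0.259 CPM in WT and 1.30, 0.731, 1.79 and 1.74 CPM in UREΔ GMPs, without overlap. Its log2 fold change of 1.59 missed the threshold (adjusted p = 0.0549, lowered to 0.0481 by the block) and passed without UREΔ replicate 2 (1.79, adjusted p = 0.0355). The sum of *Tnfsf12*, *Tnfsf13* and *Tnfsfm13* had a log2 fold change of −0.47 (adjusted p = 0.565). Most of this sum was *Tnfsf13*, so that its sign does not show the direction of *Tnfsf12* itself.

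Of the receptors of these ligands, *Tnfrsf13c* had 3.03, 3.45, 2.64 and 2.80 CPM in WT and 0.145, 0, 0.102 and 0.225 CPM in UREΔ GMPs. The groups did not overlap (log2 fold change −4.60 ± 0.59 SE, adjusted p = 0.00199, and −3.97 with an adjusted p of 0.00638 within replicates 1 and 4). *Cd79b* had 61.1 to 88.7 CPM in WT and 8.15 to 23.4 CPM in UREΔ GMPs (log2 fold change −2.31, adjusted p = 0.00349), *Pax5* was at 0 in all GMP libraries, and the part of B lineage cells was not tested. *Tnfrsf13b* had 120, 133, 145 and 148 CPM in WT and 52.0, 131, 71.5 and 57.5 CPM in UREΔ GMPs. UREΔ replicate 2 lay within the WT range and the 3 other UREΔ libraries well below it. The log2 fold change of −0.83 ± 0.28 (SE) did not pass with all libraries (adjusted p = 0.113), but passed without UREΔ replicate 2 (−1.19, adjusted p = 0.00958) and with the replicate block (−0.91, adjusted p = 0.0239). That library also had the highest *Spi1* and the highest monocyte marker sum of its group, and their part in the level of *Tnfrsf13b* was not tested.

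*Fas* had 1.34, 1.79, 2.93 and 1.45 CPM in WT and 4.77, 6.37, 4.61 and 7.71 CPM in UREΔ GMPs. It rose without overlap by a log2 fold change of 1.62 ± 0.35 (SE, adjusted p = 0.0211). *Tnfrsf26* had 117, 76.9, 69.7 and 186 CPM in WT and 359, 257, 204 and 265 CPM in UREΔ GMPs, also without overlap (log2 fold change 1.27 ± 0.32 SE, adjusted p = 0.0391). *Tnfrsf23* had 0.346, 0.623, 1.07 and 0.259 CPM in WT and 1.88, 2.71, 2.05 and 4.56 CPM in UREΔ GMPs (log2 fold change 2.25 ± 0.52 SE, adjusted p = 0.0295). It shares 26.6% of its 31-base words with *Tnfrsf22*, and the sum of both genes was not called (0.42, adjusted p = 0.505). Most of that sum was *Tnfrsf22*, with means of 15.4 CPM in WT and 18.6 CPM in UREΔ GMPs, against 0.576 and 2.80 CPM for *Tnfrsf23*. The sum thus mostly followed *Tnfrsf22* and cannot decide on the call for *Tnfrsf23*. These 3 calls also depended on single libraries. The call for *Fas* was lost without WT replicate 1, 2 or 4 or UREΔ replicate 4 (adjusted p between 0.0556 and 0.0733), that for *Tnfrsf23* without WT replicate 1, 2 or 4 or UREΔ replicate 2 or 4 (0.0541 to 0.0934), and that for *Tnfrsf26* without WT replicate 1, 2 or 3 or UREΔ replicate 1, 2 or 4 (0.0674 to 0.107). Their log2 fold changes then lay between 1.46 and 1.59, 1.91 and 2.27, and 1.09 and 1.29. The call for *Tnfrsf23* was also lost in the joint fit of all libraries (2.27, adjusted p = 0.0791). Within the sex-matched replicates 1 and 4, *Fas* (2.14, adjusted p = 0.0213) and *Tnfrsf23* (3.36, adjusted p = 0.0198) passed and *Tnfrsf26* did not (1.03, adjusted p = 0.0767).

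*Tnfrsf1b* had 64.8, 27.6, 11.1 and 37.4 CPM in WT and 126, 101, 32.9 and 177 CPM in UREΔ GMPs. The UREΔ library was the higher of each pair, while replicate 3 was the lowest in both genotypes and UREΔ replicate 3 lay inside the WT range. The log2 fold change of 1.62 ± 0.58 (SE) did not pass without the block (adjusted p = 0.139) and passed with it (1.65 ± 0.22 SE, adjusted p = 0.00191). *Tnfrsf1a* had 72.8, 66.9, 43.3 and 56.3 CPM in WT and 48.4, 86.0, 31.9 and 81.6 CPM in UREΔ GMPs, with a log2 fold change of 0.04 (adjusted p = 0.972). *Ltbr* had 34.4, 9.42, 10.8 and 25.0 CPM in WT and 20.8, 14.4, 6.40 and 29.7 CPM in UREΔ GMPs. *Tnfrsf21* had 48.3, 31.7, 29.2 and 42.6 CPM in WT and 61.0, 67.9, 39.0 and 53.7 CPM in UREΔ GMPs (log2 fold change 0.53, adjusted p = 0.227). The decoy receptor gene *Tnfrsf22* had 14.8, 15.2, 17 and 14.6 CPM in WT and 25.7, 10.8, 13.0 and 25.1 CPM in UREΔ GMPs. These 3 genes overlapped between the genotypes and did not pass, and neither did the next 3. *Tnfrsf18* had 7.01, 9.76, 10.1 and 9.38 CPM in WT and 16.6, 8.61, 22.8 and 10.8 CPM in UREΔ GMPs. The UREΔ GMP values of *Ltb* were 3.33, 1.20, 10.2 and 1.35 CPM, against 2.93 to 4.61 CPM in WT. *Tnfsf10* had 25.4, 18.1, 18.7 and 29.3 CPM in UREΔ GMPs, against 10.1 to 20.3 CPM in WT (log2 fold change 0.47, adjusted p = 0.38). All 3 overlapped as well. *Tnfsf14* had 10.9, 13.9, 11.3 and 10.2 CPM in WT and 14.1, 22.4, 18.0 and 18.3 CPM in UREΔ GMPs. It was higher in UREΔ without overlap, with a log2 fold change of 0.64 ± 0.21 (SE, adjusted p = 0.105, lowered to 0.0409 by the block). *Tnfsf9* (the ligand of 4-1BB) had 4.45, 9.25, 6.63 and 4.91 CPM in WT and 2.81, 4.57, 3.95 and 3.68 CPM in UREΔ LSKs, with overlap. In GMPs it had 3.16, 3.99, 4.64 and 3.53 CPM in WT and 0.868, 2.30, 2.41 and 1.24 CPM in UREΔ GMPs, without overlap. There its log2 fold change was −1.18 (adjusted p = 0.103, lowered to 0.0279 by the block). The 14 members that passed in neither fit had log2 fold changes between −0.74 and 0.70. The median over the 24 members tested was 0.22, and 0.0052 over all genes tested.

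**Figure D3:**
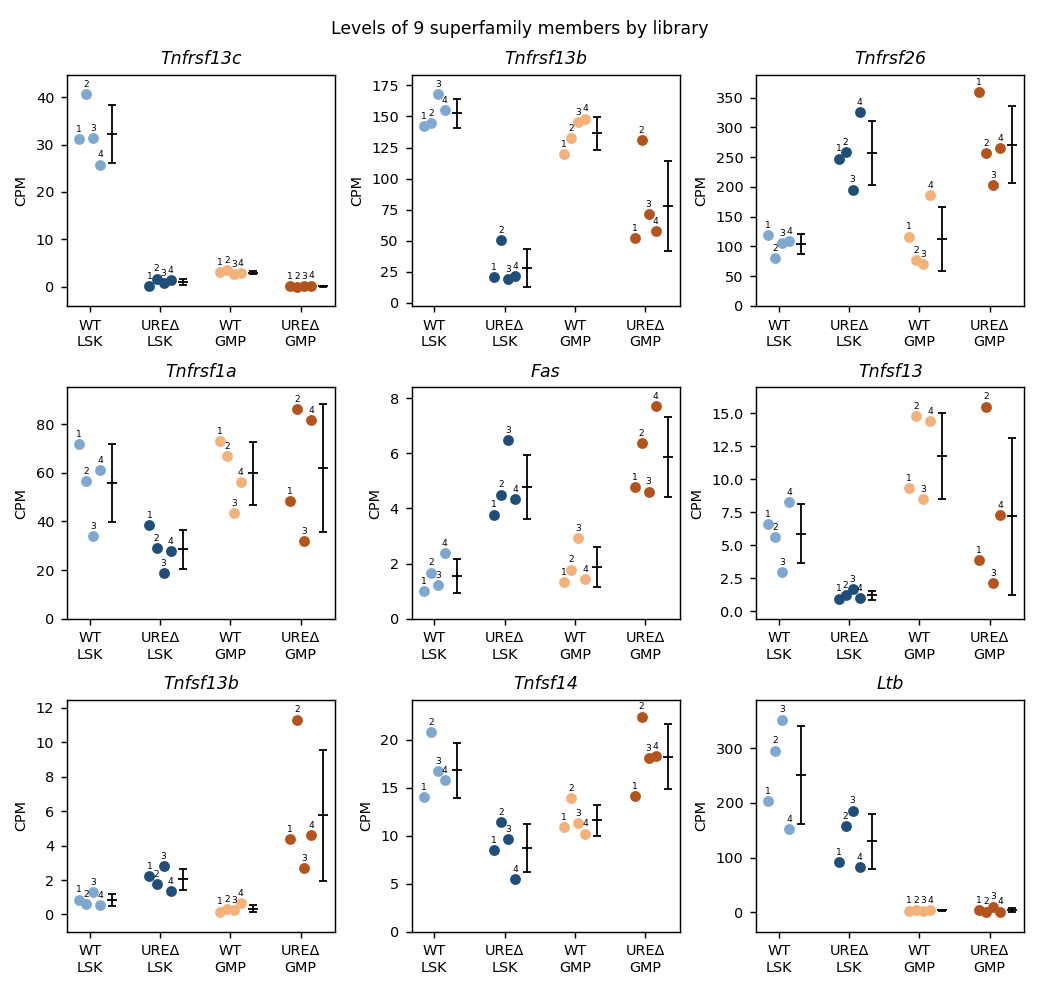
CPM of 9 members in each library (points numbered by replicate) with the group mean and SD (black) for the 4 groups, on linear axes. *Tnfsf14* is lower in UREΔ than in WT LSKs and higher in UREΔ than in WT GMPs, and UREΔ GMP replicate 2 is the highest of its group for *Tnfrsf13b*, *Tnfsf13* and *Tnfsf13b*.

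Whether the genotype effect differs between GMPs and LSKs was asked of all 16 libraries with an interaction term. Of 29 members tested, 1 was called, *Tnfsf14* (3.45%, where 1.22% of all 15935 genes were called at an adjusted p under 0.05, 0.866% with a higher and 0.351% with a lower effect in GMPs). Its effect was 1.59 higher on the log2 scale in GMPs than in LSKs (standard error 0.33, adjusted p = 0.0286), being negative in LSKs and positive in GMPs as given above. The call was lost when WT LSK replicate 2 or 4, UREΔ LSK replicate 1, WT GMP replicate 1, 3 or 4, or UREΔ GMP replicate 2 or 4 was left out, with differences between 1.47 and 1.63 and an adjusted p between 0.052 and 0.074, and with no filter on low counts (adjusted p = 0.0755). With the replicate block 5 members were called, where 6.57% of all genes were (3.97% higher and 2.6% lower), and all 5 differences were positive. Besides *Tnfsf14* these were *Tnfrsf13b* (1.65, adjusted p = 0.0114, or 0.0916 without the block), *Tnfrsf1b* (1.52, 0.00904 or 0.518), *Tnfsf13b* (2.69, 0.0476 or 0.077) and *Tnfrsf1a* (0.96, 0.0497 or 0.382). *Tnfrsf13b* also passed when UREΔ LSK replicate 2 was left out (2.10, adjusted p = 0.011) and *Tnfsf13b* when UREΔ GMP replicate 3 was left out (2.97, adjusted p = 0.0447). For *Fas* the difference was 0.03 ± 0.49 (SE) and for *Tnfrsf26* −0.04 ± 0.39 (SE), neither of which passed (adjusted p = 1 each).

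The next comparison described the members in normal maturation, as WT GMPs against WT LSKs. Of 25 members tested, 1 was higher and 7 lower in GMPs. These 8 are 32% of those tested, where 27.3% of all 14767 genes were called (11.5% higher and 15.8% lower), so that the share was near the background. Ligands accounted for 5 of the 7 falls, out of 10 ligands tested. The populations did not overlap for 12 members, 4 higher and 8 lower, where this held for 31.4% of all genes, 13.8% higher and 17.6% lower. The replicate block gave 4 higher and 9 lower, where 40.9% of all genes were called, 15.8% higher and 25.1% lower.

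*Ltb* fell most, from 203, 295, 352 and 153 CPM in WT LSKs to 2.94, 4.61, 2.93 and 3.37 CPM in WT GMPs, without any overlap (log2 fold change −6.19 ± 0.35 SE, adjusted p = 1.63e-05). *Tnfrsf13c* was likewise far lower in GMPs, with the values given above (log2 fold change −3.45 ± 0.22 SE, adjusted p = 2.78e-05). *Tnfrsf18* went from 44.8 to 65.9 CPM in LSKs to 7.01 to 10.1 CPM in GMPs (−2.56, adjusted p = 8.68e-05). *Tnfsf10* (TRAIL) had 20.3, 17.9, 10.1 and 17.6 CPM in WT GMPs, below all WT LSK libraries (−1.88, adjusted p = 0.00211). At lower levels, *Tnfsf8* (the ligand of CD30) had 3.62, 6.30, 4.49 and 2.70 CPM in WT LSKs and 1.86, 1.70, 1.27 and 1.30 CPM in WT GMPs (−1.49, adjusted p = 0.00987). *Tnfsf4* (the ligand of OX40) had 2.05, 3.12, 1.76 and 5.11 CPM in WT LSKs and 0.693, 1.54, 0.391 and 0.259 CPM in WT GMPs (−2.05, adjusted p = 0.028). *Tnfsf12* was also lower (−1.43, adjusted p = 0.0195). None of these 7 genes overlapped between the populations.

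*Tnfrsf8*, which encodes CD30, was the gene that rose in WT GMPs, with 1.04, 1.91, 1.76 and 1.35 CPM against 0, 0, 0.273 and 0 CPM in WT LSKs (log2 fold change 4.43 ± 0.98 SE, adjusted p = 0.00899). Only WT LSK replicate 3 had counts, and without it the fitted value was 8.23, which depends on the zeros. The calls for 2 weakly expressed ligands depended on single libraries. That for *Tnfsf4* was lost without WT LSK replicate 2 or 4 or WT GMP replicate 1, 3 or 4 (adjusted p between 0.0596 and 0.0805), and that for *Tnfsf12* without WT LSK replicate 1 or WT GMP replicate 2 or 4 (0.0537 to 0.0689). The call for *Tnfsf12* was also lost with no filter on low counts (adjusted p = 0.0613) and within replicates 1 and 4 (−1.41, adjusted p = 0.165). *Tnfsf8* did not pass in the joint fit of all libraries (adjusted p = 0.158) or within replicates 1 and 4 (−1.0, adjusted p = 0.147). *Tnfsf13*, *Tnfrsf22* and *Tnfrsf14*, which encodes HVEM, a receptor of LIGHT, had every GMP library above every LSK library and passed with the block (0.99, 0.66 and 0.82 without it, adjusted p = 0.0599, 0.0601 and 0.135, against 0.00338, 0.0139 and 0.0473 with it). *Tnfsf13* also passed without WT GMP replicate 1 or 3 (1.14 and 1.16, adjusted p = 0.0486 and 0.0414), and *Tnfrsf22* without WT LSK replicate 1 (0.86, adjusted p = 0.0264). *Tnfsf9* and *Tnfrsf10b* were lower with the block (adjusted p = 0.0216 and 0.0409, against 0.0987 and 0.177). *Tnfrsf13b*, *Tnfrsf1a*, *Tnfrsf26*, *Ltbr* and *Fas* had log2 fold changes between −0.17 and 0.26 and did not pass.

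**Figure D4:**
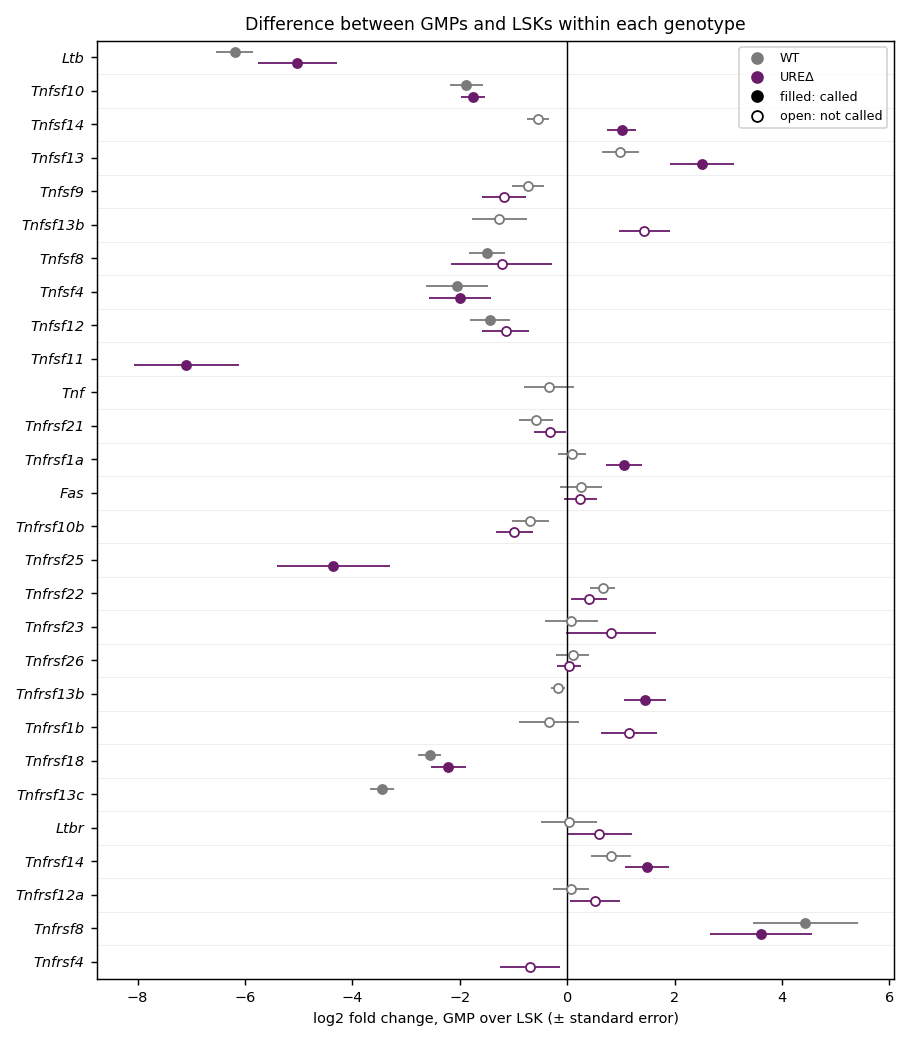
Log2 fold change of GMPs over LSKs with its standard error for each member tested in WT (grey) or UREΔ (purple) mice, with filled points for called members. *Ltb* lies at −6.19 in WT and −5.03 in UREΔ, while *Tnfrsf13b* lies at −0.17 in WT and 1.44 in UREΔ.

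In UREΔ mice, GMPs differed from LSKs in 12 of the 26 members tested, 6 higher and 6 lower. This is 46.2%, where 21.8% of all 14395 genes were called, 9.2% higher and 12.6% lower. The populations did not overlap for 14 members, 5 higher and 9 lower, where this held for 26.6% of all genes, 12.3% higher and 14.3% lower. The blocked fit gave 7 higher and 8 lower, where 31.9% of all genes were called, 13.3% higher and 18.6% lower. *Ltb* (82.4 to 186 CPM in UREΔ LSKs, 1.20 to 10.2 CPM in UREΔ GMPs, log2 fold change −5.03, adjusted p = 0.00158), *Tnfrsf18* (−2.22, adjusted p = 0.00158), *Tnfsf10* (−1.75, adjusted p = 0.000805) and *Tnfsf4* (−2.0, adjusted p = 0.0351) were lower, and *Tnfrsf8* was higher (3.62, adjusted p = 0.0234). All 5 were also called in WT mice in the same direction, in libraries of other mice. *Tnfsf4* had 1.56, 2.78, 1.26 and 1.96 CPM in UREΔ LSKs and 1.01, 0.209, 0.461 and 0.225 CPM in UREΔ GMPs. *Tnfrsf8* had 0.117, 0, 0 and 0.334 CPM in UREΔ LSKs and 1.06, 2.04, 1.02 and 1.74 CPM in UREΔ GMPs. Neither gene overlapped between the populations. *Tnfsf8*, called in WT mice, had 3.16, 4.37, 0.168 and 1.38 CPM in UREΔ LSKs and 0.530, 2.66, 0.205 and 0.619 CPM in UREΔ GMPs, with overlap (−1.22, adjusted p = 0.4). *Tnfsf11* (RANKL) had 0.662, 0.695, 1.18 and 0.418 CPM in UREΔ LSKs and no count in any UREΔ GMP library (adjusted p = 0.00385). In WT mice it had 0.192, 0.201, 0.312 and 0.443 CPM in LSKs and counts in 1 GMP library, at 0.0433 CPM. Its 76 counts in LSKs put its level at least 18.9-fold higher there, against a floor of 3 counts over the GMP group. *Tnfrsf25* (DR3) had 0.623, 0.861, 2.27 and 0.877 CPM in UREΔ LSKs and counts in only 1 UREΔ GMP library, at 0.225 CPM (log2 fold change −4.36, adjusted p = 0.0161). Its WT values were 1.09, 0.503, 0.312 and 0.684 CPM in LSKs and 0.0433, 0.125, 0.0488 and 0 CPM in GMPs.

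The other 5 rises in UREΔ GMPs were *Tnfsf13* (log2 fold change 2.51 ± 0.60 SE, adjusted p = 0.0153), *Tnfrsf14* (1.49, 0.40, 0.0264), *Tnfrsf13b* (1.44, 0.39, 0.0271), *Tnfrsf1a* (1.07, 0.34, 0.0475) and *Tnfsf14* (1.02, 0.27, 0.0253). Except for *Tnfrsf1a*, the GMP and LSK libraries of these genes did not overlap. *Tnfrsf14* had 0.857, 0.993, 0.757 and 1.0 CPM in UREΔ LSKs and 1.98, 3.39, 1.54 and 3.60 CPM in UREΔ GMPs, and 1.60, 1.27, 1.21 and 0.966 CPM in WT LSKs and 3.85, 1.74, 1.81 and 1.61 CPM in WT GMPs. *Tnfrsf1b* did not pass with all libraries and no block (1.16, adjusted p = 0.148). It passed with the block (1.10, adjusted p = 0.00694), without UREΔ GMP replicate 3 (1.47, adjusted p = 0.0417) and within replicates 1 and 4 (1.16, adjusted p = 0.00986). *Tnfsf12* and *Tnfsf9* were lower with the block (−1.15 and −1.27, adjusted p = 0.0455 and 0.0222). Without UREΔ GMP replicate 2, 1 member was higher and 4 were lower, and over all genes 933 were higher and 1351 lower, against 1325 and 1808 with every library. Without UREΔ GMP replicate 4 the counts were 2 and 6 members and 935 and 1258 of all genes. Without UREΔ LSK replicate 1 or 4 they were also 2 and 6 members. Over all genes they were 1038 and 1402 without replicate 1, and 1038 and 1393 without replicate 4. The calls lost without UREΔ GMP replicate 2 were *Tnfrsf13b*, *Tnfrsf14*, *Tnfrsf1a*, *Tnfsf14*, *Tnfrsf8*, *Tnfrsf25* and *Tnfsf4*, with an adjusted p between 0.0502 and 0.128. Of these, *Tnfrsf25* kept its call when any other single library was left out, and lost it within replicates 1 and 4 (−2.74, adjusted p = 0.0919). *Tnfrsf8* was also lost without UREΔ LSK replicate 1 or UREΔ GMP replicate 4, *Tnfrsf13b* without UREΔ LSK replicate 1, 3 or 4, and *Tnfrsf14* and *Tnfsf14* without UREΔ LSK replicate 1 or 4 or UREΔ GMP replicate 4. *Tnfsf4* was also lost without UREΔ LSK replicate 1, 2 or 4 or UREΔ GMP replicate 3 or 4, and *Tnfrsf1a* without UREΔ LSK replicate 2, 3 or 4 or UREΔ GMP replicate 1 or 4. All of these adjusted p values lay between 0.0543 and 0.128, and each log2 fold change kept its sign. With no filter on low counts, *Tnfsf4*, *Tnfrsf14* and *Tnfrsf1a* were not called either (adjusted p = 0.0606, 0.071 and 0.0539). Within replicates 1 and 4, *Tnfrsf14* (1.59, adjusted p = 0.0581) and *Tnfsf4* (−1.47, adjusted p = 0.167) did not pass.

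The 15 members under 1 CPM in every group were 8 ligands, 6 receptors that are neither death-domain nor decoy receptors, and 1 decoy receptor, *Tnfrsf11b*. *Tnf* itself had 0.282 to 0.905 CPM in WT LSKs, 0.156 to 0.715 in UREΔ LSKs, 0.311 to 0.581 in WT GMPs and 0.0482 to 0.900 in UREΔ GMPs, and its log2 fold change between genotypes in LSKs was −0.44 (adjusted p = 0.903). *Fasl*, the ligand of Fas, reached at most 0.416 CPM in any library. *Cd40*, a receptor of antigen-presenting cells, had 0.134 to 0.448 CPM in WT LSKs (30 counts) and none in UREΔ LSKs, at least 9.29-fold higher in WT against a floor of 3 counts over the UREΔ group. *Tnfsf15* (the ligand of DR3) had 9 counts in UREΔ LSK replicate 1 and 23 in replicate 3, and none in replicates 2 and 4 or in any WT LSK library. In GMPs its counts went the other way, with 5, 3, 5 and 2 in WT and 1, 1, 0 and 0 in UREΔ libraries, too few to be tested. *Cd70* and *Tnfsf18* had at most 2 counts in a library, and *Tnfrsf11b*, the decoy receptor for RANKL, had at most 0.974 CPM.

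Superfamily genes outside the symbol rule and the signalling genes downstream were examined as lists. Of the former (*Cd27*, *Ngfr*, *Relt*, *Eda*, *Edar*, *Eda2r*), *Cd27*, a costimulatory receptor that also marks progenitors, was lower in UREΔ than in WT cells in both populations. It had 231, 290, 305 and 247 CPM in WT LSKs and 127, 171, 130 and 115 CPM in UREΔ LSKs (log2 fold change −1.01 ± 0.18 SE, adjusted p = 0.00921). In GMPs it had 106, 133, 153 and 145 CPM in WT and 29.5, 22.1, 52.4 and 23.4 CPM in UREΔ (−2.08 ± 0.31 SE, adjusted p = 0.0038). Neither pair of groups overlapped. *Relt* and *Edar* were called in LSKs with the block (log2 fold changes −1.55 and 1.27 without it, adjusted p = 0.0834 and 0.114, against 0.0473 and 0.0396 with it).

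Of 37 receptor-proximal signalling genes (adaptors, kinases, caspases, ubiquitin ligases and the proteases that shed receptors), all were tested in both populations and nearly all did not pass. *Traf5*, an adaptor of several TNF receptors, was the 1 gene called in LSKs, with 13.9, 21.4, 14.3 and 13.4 CPM in WT and 2.92, 5.03, 6.98 and 5.51 CPM in UREΔ (−1.65 ± 0.31 SE, adjusted p = 0.0133). This is 2.7% of the list, where 6.14% of all genes were called. *Traf5* and *Mlkl* were the 2 called in GMPs (5.41%, where 8.3% of all genes were called). *Traf5* had 8.87, 5.77, 4.30 and 5.08 CPM in WT and 1.06, 1.25, 0.871 and 1.01 CPM in UREΔ GMPs (−2.52, adjusted p = 0.00191). *Mlkl*, the executor of necroptosis, had 87.0, 109, 105 and 99.0 CPM in WT and 41.5, 51.5, 49.2 and 39.8 CPM in UREΔ GMPs (−1.15, adjusted p = 0.00276). These 3 calls were all lower in UREΔ and without overlap. The list's median log2 fold change was −0.04 in LSKs and −0.07 in GMPs. With the replicate block 1 gene was lower in LSKs, while 2 were higher and 4 lower in GMPs. The 6 blocked calls in GMPs were 6 of 37, where 16.3% of all genes were called in that fit, and the 1 in LSKs stands beside 9.46%. Between GMPs and LSKs, 3 of the 37 were higher and 5 lower in WT mice (21.6%, where 27.3% of all genes were called), or 5 and 8 with the block (40.9% of all genes). In UREΔ mice 1 was higher and 5 lower (16.2%, where 21.8% of all genes were called), or 1 and 6 with the block (31.9% of all genes).

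Of the 11 genes of the NF-κB family and its inhibitors, 3 were lower in UREΔ LSKs, where 6.14% of all genes were called and 3.76% were lower. *Rel* (c-Rel) had 94.4, 51.5, 31 and 50 CPM in WT and 26.5, 12.1, 13.0 and 20.6 CPM in UREΔ LSKs (−1.68 ± 0.38 SE, adjusted p = 0.0289). The inhibitors *Nfkbia* (84.2 to 119 CPM in WT, 36.7 to 71.2 in UREΔ, −0.97, adjusted p = 0.0364) and *Nfkbie* (34.4 to 59.4 and 19.1 to 31.3 CPM, −1.06, adjusted p = 0.0267) were lower too, again without overlap. In GMPs edgeR called 0 of the 11, where 8.3% of all genes were called. There 1 gene, *Rel*, had an unadjusted p under 0.05 (log2 fold change −1.40, adjusted p = 0.104), and *Rel* was also the 1 gene called by DESeq2 and with the replicate block (adjusted p = 0.0133). The list's median log2 fold change was −0.34 in LSKs and 0.01 in GMPs. Between GMPs and LSKs, 1 was higher and 5 lower in WT mice (1 and 9 with the block), where 27.3% of all genes were called (40.9% with the block). In UREΔ mice 2 were lower in either fit, where 21.8% of all genes were called (31.9% with the block). *Nfkbia* had an interaction of 1.18 ± 0.29 (SE), not called without the block (adjusted p = 0.0632) and called with it (adjusted p = 0.00329).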

How the data were processed

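Total RNA of sorted LSKs and GMPs, up to 10 ng, was made into unstranded low-input libraries of polyadenylated RNA without molecular identifiers and sequenced in pairs. The authors deposited estimated counts per gene, made with Salmon and summed to genes with tximport. The submitters' processing notes name GRCm38, and the annotation release is not given in the sources used here (54094 gene IDs matched GENCODE M21, 253 did not). Counts were used as whole numbers, with any decimal part dropped. Each comparison was fitted on its own libraries with edgeR 4.0.16 (limma 3.58.1, R 4.3.3), using TMM, filterByExpr and the quasi-likelihood test with Benjamini-Hochberg adjustment over all genes tested. Calls needed a fold above 1.5 with the adjusted p below 0.05, and for the interaction over all 16 libraries the adjusted p alone. CPM shown per library share one TMM scaling over all 16 libraries, so that ratios of CPM can differ slightly from fitted fold changes. Scripts were tested on simulated data.

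Libraries came from 4 mice per group, and the mouse is the replicate. The sources used here do not state whether same-numbered LSK and GMP libraries of a genotype came from the same mouse. Fits without the replicate block treat them as independent. Same-numbered libraries deviated together, with a correlation of at least 0.304 for every number in LSKs, 0.282 in GMPs, 0.47 in WT, 0.442 in UREΔ and 0.237 over all groups. Replicates 1 and 4 also deviated together, with 0.435 between WT replicate 1 and UREΔ replicate 4 in LSKs and 0.476 in GMPs. The mean correlation between different numbers was −0.145 in LSKs and −0.15 in GMPs. A fit with the replicate number as a block was therefore made for each comparison. Floors of 3 counts cover counting error only. An exact two-sided permutation test of 4 against 4 libraries cannot go below 0.0286.

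Values in every library are given for members called in any comparison or with a group mean of at least 10 CPM (and for *Tnfsf9*), and ranges for the others described. Members and lists were chosen with earlier results of these data known. Alternatives were DESeq2 1.42.0, RLE size factors, no filter on low counts, a mean of at least 1 CPM, no fold threshold, a joint fit, replicates 1 and 4 or 2 and 3 only, each library left out, and, chosen after seeing the data, summed counts of loci that share sequence. Figures were drawn with matplotlib 3.10.9 and pandas 2.3.3. A B cell marker sum is not reported here.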

Additional observations from a re-analysis of the deposited data

Results flagged for a closer look

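In 5 of 82 groups of 4 libraries, 1 library stood apart from the other 3 by Dixon's test, a test that chance passes in about 1 in 20 groups. *Tnfrsf13b* had 50.4 CPM in UREΔ LSK replicate 2 and 18.9 to 21.7 CPM in the others. *Tnfrsf14* had 3.85 CPM in WT GMP replicate 1 and 1.61 to 1.81 CPM in the others. *Tnfrsf22* had 18.6 CPM and *Tnfrsf25* 2.27 CPM in UREΔ LSK replicate 3, against 11.4 to 12.5 CPM and 0.623 to 0.877 CPM. *Tnfsf8* had 2.66 CPM in UREΔ GMP replicate 2 and 0.205 to 0.619 CPM in the others. The genotype effect on *Tnfsf14* differed between the populations, being 1.59 higher on the log2 scale in GMPs than in LSKs by the interaction term.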

How the results depend on the processing

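Of 901 values of 52 gene results under alternatives, 747 kept their direction and side of the threshold, 100 lost the call, 53 gained one and 1 turned its direction. The last was *Tnfsf12* in GMPs, at −0.47 with *Tnfsf12*, *Tnfsf13* and *Tnfsfm13* summed, an alternative chosen after seeing the data. That value belongs to the sum. In it *Tnfsf13* had means of 11.8 CPM in WT and 7.18 CPM in UREΔ GMPs, against 0.454 and 1.39 CPM for *Tnfsf12*. It does not show that *Tnfsf12* alone turned its direction. All 94 gene values within replicates 1 and 4 or 2 and 3 kept their sign. The cause of the changes below was not tested.

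Against 2 higher and 3 lower members in LSKs, DESeq2 called 4 and 7, the fit without a filter 1 higher, replicates 1 and 4 called 1 and 5, and replicates 2 and 3 called 0 higher. The members that DESeq2 added in LSKs were *Tnfsf12* and *Tnfsf13b* (higher) and *Cd40*, *Lta*, *Tnfrsf1a* and *Tnfsf14* (lower). Against 4 higher and 1 lower in GMPs, DESeq2 and the joint fit called 2 lower, replicates 1 and 4 called 2 lower, and replicates 2 and 3 called 1 and 0. Against 1 higher and 7 lower in WT GMPs over LSKs, DESeq2 called 4 and 12, RLE 3 higher, no filter 2 higher, and the mean filter and replicates 2 and 3 called 0 higher. Against 6 and 6 in UREΔ mice, DESeq2 and the joint fit called 10 lower and replicates 2 and 3 called 1 higher. Against 1 interaction, DESeq2 called 3 and no filter 0. The members that DESeq2 added there were *Tnfrsf13b* (1.61, adjusted p = 0.026) and *Tnfsf13b* (2.74, adjusted p = 0.00918).

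With the replicate block the counts were 7 lower in LSKs, 7 higher and 3 lower in GMPs, 4 higher in WT, and 5 for the interaction. The block gained 21 gene calls, lost 0 and changed no other call.

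With 1 library left out, the counts of higher and lower members were 1 to 2 and 3 to 4 in LSKs, 1 to 4 and 1 to 2 in GMPs, 1 to 2 and 6 to 8 in WT, 1 to 8 and 4 to 6 in UREΔ mice, and 0 to 2 and 0 to 0 for the interaction. The counts over all genes moved too. They were 206 to 353 and 359 to 608 in LSKs, and 395 to 638 and 320 to 538 in GMPs. In WT mice they were 1300 to 2002 and 1810 to 2305, and in UREΔ mice 933 to 1606 and 1258 to 1822. For the interaction they were 66 to 188 and 18 to 95. Over all genes, DESeq2 moved the LSK counts from 360 and 570 to 677 and 954 and the GMP counts from 646 and 502 to 1112 and 883, the block moved the GMP counts to 1317 and 943, and replicates 2 and 3 gave 56 and 52 in GMPs. The LSK counts were 340 and 555 with no filter, 352 and 636 in replicates 1 and 4, and 157 and 229 in replicates 2 and 3. The GMP counts were 876 and 677 in the joint fit and 675 and 561 in replicates 1 and 4. In WT mice the 1702 higher and 2335 lower genes became 2366 and 2871 with DESeq2, 1957 and 2153 with RLE, 2335 and 3706 with the block and 1277 and 1230 in replicates 2 and 3. They were 1656 and 2334 with no filter and 1513 and 2110 with the mean filter. DESeq2 tested 28920 genes there, against 14767. In UREΔ mice 1325 and 1808 became 1906 and 2322 with DESeq2, 1695 and 2268 in the joint fit and 363 and 447 in replicates 2 and 3. For the interaction 138 and 56 became 416 and 258 with DESeq2, 103 and 36 without a filter and 632 and 415 with the block. Members under 1 CPM rest on few counts, and the part of sequencing depth in their results was not tested.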
